A study of Rattus norvegicus with 17 samples.

Results

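The genes described here are interferon-stimulated genes, the transcripts that cells switch on when type I or type II interferon binds its receptor. A list of 35 such genes was taken, and each was looked up among the probe sets annotated with a single gene symbol. Of the 35 genes, 33 were measured, each by 1 probe set, out of 14506 genes in all. No probe set was matched to Parp14 or Xaf1, which enter only the promoter search below. Ddx58 stands in the array annotation under the symbol Rig1.

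Ventricular myocytes of neonatal Sprague-Dawley rats, in cultures given as 5 days old, had been exposed to 1 of 4 conditions. There were 2 arrays with phenylephrine, which stimulates alpha-adrenergic receptors and enlarges myocytes in culture. A further 6 arrays came from cultures with 10% uremic plasma drawn after nocturnal hemodialysis (NHD), which is long dialysis given overnight, 6 from cultures with 10% uremic plasma drawn before NHD, and 3 from cultures with control plasma. The labels name biological replicates but not whether these differ in culture, in plasma donor or in both, so the p-values measure only the spread between these samples. The plasma share of the control cultures and the medium of the phenylephrine cultures are not stated in the labels, so that phenylephrine and control cultures may differ in more than the agonist. The comparison the series is named for asks what NHD changes in myocyte expression through the plasma.

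In an interferon response, RNA sensors such as RIG-I (Ddx58) and MDA5 (Ifih1) start the production of interferon, and the secreted interferon signals through JAK kinases to STAT proteins. STAT2 and IRF9 are subunits of the complex ISGF3, which binds the interferon-stimulated response element (ISRE) in the promoters of these genes. Interferon gamma acts mainly through the gamma-activated site (GAS). The products block viral entry, replication and translation, attach the ubiquitin-like protein ISG15 to other proteins, draw in leukocytes, and damp the response itself.

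The response element links these genes at the level of sequence, so promoters were searched for its core, GAAA followed by any 2 bases and GAAA again, on either strand (read as TTTC, any 2 bases and TTTC on the opposite one). The windows were RefSeq promoters of assembly GRCr8, 300 bases long, from 250 bases before to 50 bases after the start of the gene. Of the 35 genes, 26 had a promoter in that table. The core was found in 15 of the 26 (57.7%), against 3.92% of all 33469 promoters and 3.41% of the 11968 promoters of genes with a probe set. The core of the GAS, TTCNNNGAA, was found in 6 of the 26 (23.1%), against 8.87% and 7.59% in the same sets. The stretches around the core are shown for 8 genes whose values are described below, 5′ to 3′ on the strand of the gene, with the core in capitals.
Irf7: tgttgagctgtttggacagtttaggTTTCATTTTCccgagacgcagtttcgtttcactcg
Ifih1: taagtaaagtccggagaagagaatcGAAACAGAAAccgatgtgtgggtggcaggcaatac
Ifit3: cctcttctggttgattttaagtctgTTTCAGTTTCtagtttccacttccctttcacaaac
Rsad2: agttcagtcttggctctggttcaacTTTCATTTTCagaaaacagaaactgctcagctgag
Oas1a: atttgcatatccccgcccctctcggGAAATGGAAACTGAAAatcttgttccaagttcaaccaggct
Cxcl10: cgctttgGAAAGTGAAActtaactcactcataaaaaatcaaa
Gbp2: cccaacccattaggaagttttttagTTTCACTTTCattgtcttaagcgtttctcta
Gbp5: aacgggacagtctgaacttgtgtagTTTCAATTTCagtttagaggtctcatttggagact
In GRCr8 these stretches lie at chr1:205800058-205800117 on the minus strand (Irf7), chr3:67683993-67684052 on the minus strand (Ifih1), chr1:241527257-241527316 on the plus strand (Ifit3) and chr6:48788233-48788292 on the minus strand (Rsad2). The others lie on the plus strand, at chr12:41330400-41330465 (Oas1a), chr14:15988816-15988857 (Cxcl10), chr2:234005671-234005726 (Gbp2) and chr2:233910918-233910977 (Gbp5). The first base of the core stood at -69 from the start of Irf7, -59 in Ifih1, -44 in Ifit3, -147 in Rsad2, -41 in Oas1a, -243 in Cxcl10, -31 in Gbp2 and -56 in Gbp5. In Oas1a a second core, at -35, overlaps the first.

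The values are log2 levels that the authors made with RMA, a method that makes the arrays' distributions alike and summarises the probes of each set, so only differences within a gene are compared. The cultures carried the myocyte genes Tnnt2 (13.39 to 13.65 over the 17 arrays) and Actc1 (13.85 to 14.11), which encode cardiac troponin T and cardiac actin. Other genes of the 10 myocyte markers moved. Against control plasma, 2 of the 10 passed with phenylephrine, Myh7 (0.53 ± 0.12) and Ryr2 (1.24 ± 0.37), both higher (limma). With after NHD plasma 6 passed, all higher, namely Ryr2 (1.60 ± 0.29), Myh6 (0.84 ± 0.14), Tnni3 (0.77 ± 0.16), Myl2 (0.59 ± 0.19), Atp2a2 (0.56 ± 0.16) and Myh7 (0.35 ± 0.09), and with before NHD plasma 2, Ryr2 (1.17 ± 0.29) and Myh6 (0.67 ± 0.14). Of all probe sets, 8.54% passed as higher and 10.2% as lower with phenylephrine. The shares were 12.9% and 15.3% with after NHD plasma, and 2.88% and 2.05% with before NHD plasma. The median of the 10 was 0.28, 0.45 and 0.25 log2 units in these comparisons. The part of the myocyte genes in the results below was not tested. Array 6 of the before NHD group stood apart for the interferon-stimulated genes. It was the highest of the 6 before NHD arrays for 29 of the 33 genes, while it was the highest for 16.5% of all genes. The counts of calls below are given with and without it. These same genes set the array apart, so calls made without it are not independent of that choice.

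**Figure D1:**
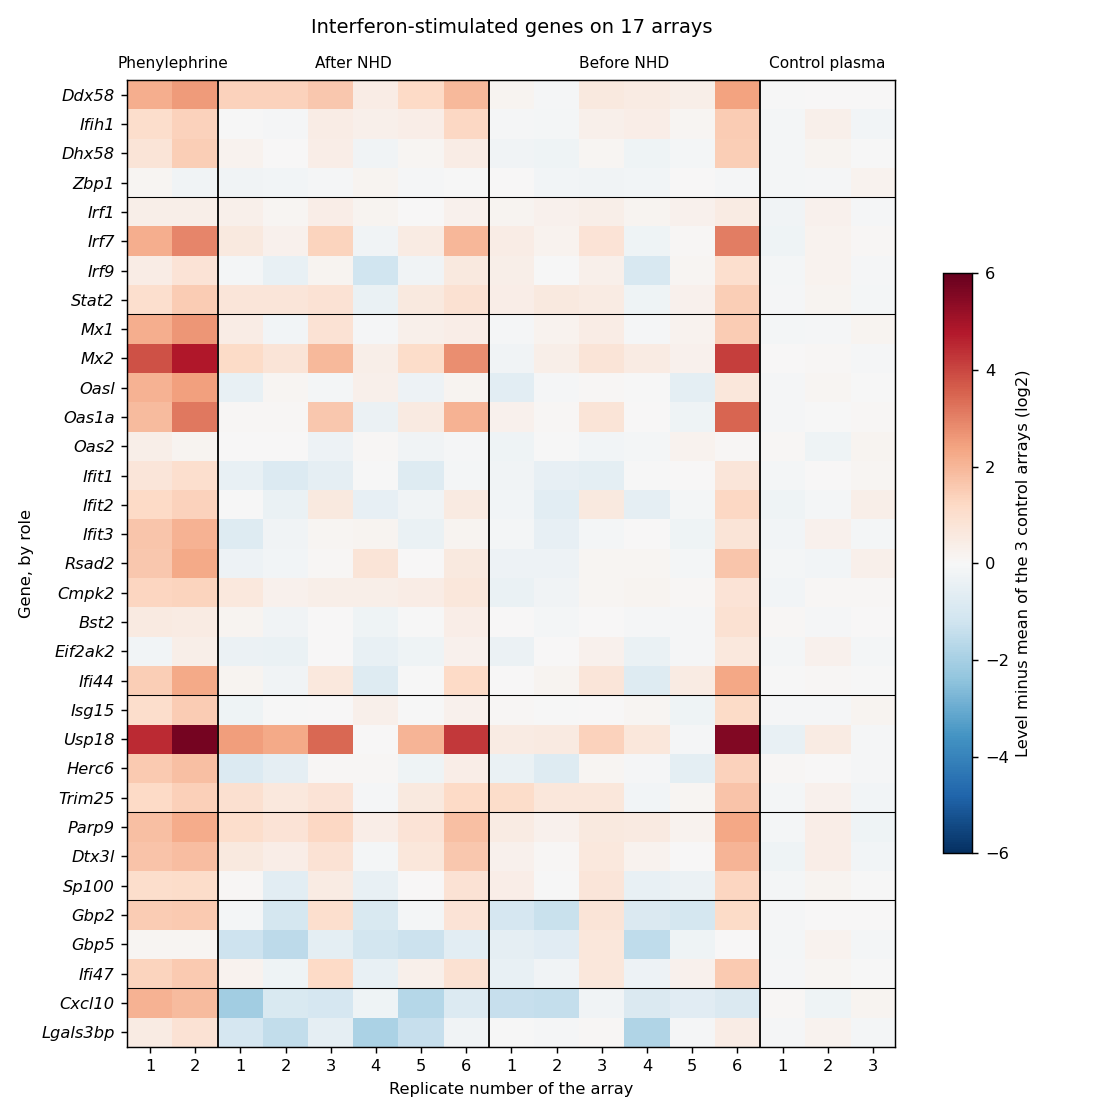
The map shows 33 interferon-stimulated genes (rows, by role) on 17 arrays (columns, with phenylephrine first and then after NHD, before NHD and control plasma, numbered by replicate), coloured by the log2 level minus the mean of the 3 control arrays. Both phenylephrine arrays and before NHD replicate 6 stand out, with means over the 33 genes of 1.37, 1.73 and 1.46 log2 units above control.

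Phenylephrine cultures had higher levels of most interferon-stimulated genes than control plasma cultures. Of the 33 genes, 17 rose and 0 fell at an adjusted p under 0.05 (limma over all 29214 probe sets, Benjamini-Hochberg), while 8.54% of all probe sets rose and 10.2% fell. The median difference over the 33 genes was 1.32 log2 units, against -0.06 over all genes. In 30 of the 33, both phenylephrine arrays lay above all 3 control arrays, which held for 24.6% of all probe sets (32.3% had both below). The exceptions were Zbp1, Eif2ak2 and Gbp5.

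Among the sensors, 2 of 4 rose. Ddx58, which recognises short viral RNA with a 5′ triphosphate, was at 9.78 and 10.14 with phenylephrine and at 7.55, 7.62 and 7.59 with control plasma. That was a difference of 2.37 ± 0.53 log2 units (SE; adjusted p = 0.0061, limma), or 5.19-fold. Ifih1, which recognises long double-stranded RNA, was at 8.95 and 9.30 with phenylephrine and at 7.81, 8.20 and 7.74 with control plasma (1.21 ± 0.41; adjusted p = 0.048, limma). Both genes had no overlap between these groups. Dhx58, the related helicase LGP2, differed by 1.12 ± 0.39 without passing (adjusted p = 0.055, limma). Zbp1, a sensor of Z-form nucleic acid, was at 6.09 and 5.74 with phenylephrine and at 5.83 to 6.15 with control plasma, and the 2 ranges overlapped.

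Among the transcription factors, 2 of 4 rose. Irf7, the factor that amplifies type I interferon production, was at 9.21 and 9.94 with phenylephrine and at 6.74, 7.22 and 7.07 with control plasma (2.56 ± 0.74; adjusted p = 0.024, limma), which is 5.91-fold. Stat2, a subunit of ISGF3, was at 9.26 and 9.80 with phenylephrine and at 8.22, 8.42 and 8.17 with control plasma (1.26 ± 0.40; adjusted p = 0.036, limma). Irf9, the DNA-binding subunit of ISGF3, differed by 0.64 ± 0.46 and Irf1, a factor induced mainly by interferon gamma, by 0.33 ± 0.14, and neither passed (adjusted p = 0.36 and 0.12, limma).

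The antiviral effectors held 6 of the 17 increases among 13 genes. Mx2, a dynamin-like GTPase, was at 9.13 and 10.12 with phenylephrine and at 5.34, 5.40 and 5.23 with control plasma, a difference of 4.30 ± 0.94 log2 units (adjusted p = 0.0053, limma) or 19.7-fold. Mx1, its relative that traps viral nucleocapsids, was at 7.02 and 7.47 with phenylephrine and at 4.73, 4.77 and 5.00 with control plasma (2.41 ± 0.37; adjusted p = 0.00079, limma). The gaps between the groups were more than 2 log2 units in both Mx genes. Oasl, a relative of the oligoadenylate synthetases that enhances RIG-I signalling, was at 8.92 and 9.34 with phenylephrine and at 6.8, 6.96 and 6.81 with control plasma (2.27 ± 0.31; adjusted p = 0.00047, limma), the smallest adjusted p of the 33 genes. Ifit3, an adaptor of the IFIT proteins that bind foreign RNA, was at 7.93 and 8.35 with phenylephrine and at 6.09, 6.53 and 6.14 with control plasma (1.88 ± 0.32; adjusted p = 0.0013, limma).

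Rsad2, or viperin, which makes a chain-terminating nucleotide, was at 7.12 and 7.78 with phenylephrine and at 5.39, 5.32 and 5.78 with control plasma (1.96 ± 0.45; adjusted p = 0.0076, limma). Cmpk2, the nucleotide kinase gene that lies beside viperin in mammalian genomes, was at 7.49 and 7.50 with phenylephrine and at 6.03, 6.25 and 6.28 with control plasma (1.31 ± 0.25; adjusted p = 0.0025, limma). Of the effectors that did not pass, Oas1a, which makes the activator of RNase L, had the largest difference. It was at 7.53 and 8.79 with phenylephrine and at 5.59, 5.62 and 5.73 with control plasma (2.51 ± 0.89; adjusted p = 0.058, limma), without overlap. Ifi44 (1.89 ± 0.65), Ifit2 (1.28 ± 0.45) and Ifit1 (0.87 ± 0.30) were also just outside the threshold, with adjusted p of 0.051, 0.058 and 0.057 (limma). Bst2, or tetherin, which holds budding virus at the cell surface, differed by 0.51 ± 0.25, Oas2 by 0.26 ± 0.16 and Eif2ak2, the kinase PKR that halts translation, by 0.08 ± 0.27, and none passed.

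All 4 genes of the ISG15 system rose with phenylephrine. Usp18, the protease that removes ISG15 and also blocks signalling at the type I interferon receptor, was at 9.61 and 10.84 with phenylephrine and at 4.69, 5.63 and 5.03 with control plasma. Its difference of 5.11 ± 1.30 log2 units (adjusted p = 0.013, limma), or 34.6-fold, was the largest of the 33 genes. Isg15 itself was at 7.40 and 7.84 with phenylephrine and at 6.27, 6.25 and 6.49 with control plasma (1.28 ± 0.30; adjusted p = 0.0076, limma). Herc6, the ligase that attaches ISG15 in the mouse, was at 8.14 and 8.37 with phenylephrine and at 6.61, 6.56 and 6.51 with control plasma (1.70 ± 0.46; adjusted p = 0.018, limma). Trim25, the ubiquitin ligase that acts on RIG-I, differed by 1.32 ± 0.42 (adjusted p = 0.036, limma).

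Parp9 and Dtx3l, which form an ADP-ribosylating and ubiquitinating pair, rose by 2.01 ± 0.49 and 1.78 ± 0.50 log2 units (adjusted p = 0.010 and 0.022, limma). Parp9 was at 8.58 and 9.01 with phenylephrine and at 6.65, 7.19 and 6.50 with control plasma. Sp100, a nuclear body protein, differed by 1.08 ± 0.45 without passing (adjusted p = 0.11, limma). None of the 3 GTPases of the interferon gamma response passed. Gbp2, a guanylate-binding protein, was at 9.16 and 9.22 with phenylephrine and at 7.58, 7.68 and 7.68 with control plasma (1.54 ± 0.69; adjusted p = 0.14, limma), and Ifi47 differed by 1.43 ± 0.52 (adjusted p = 0.063, limma). Gbp5 was at 7.81 and 7.83 with phenylephrine and at 7.57, 7.92 and 7.59 with control plasma, so its groups overlapped.

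Cxcl10, the chemokine that draws in T cells through the receptor CXCR3, was at 11.28 and 11.12 with phenylephrine and at 9.31, 8.98 and 9.36 with control plasma. The difference was 1.98 ± 0.42 log2 units (adjusted p = 0.0046, limma), or 3.96-fold. Lgals3bp, a secreted glycoprotein that binds galectins, was at 11.90 and 12.30 with phenylephrine and at 11.34, 11.63 and 11.29 with control plasma (0.68 ± 0.53; adjusted p = 0.40, limma). Among the 24 measured genes with a promoter in the table, 6 of 13 with the response element core passed, with a median difference of 1.78, and 7 of 11 without it passed, with a median of 1.32.

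The count of 17 rested on 2 phenylephrine arrays. It was 8 without phenylephrine replicate 1, 5 without replicate 2 and 24 without before NHD replicate 6, which enters through the pooled spread. Of all probe sets, 5.55%, 6.2% and 21% were called in either direction under these omissions, beside 18.7% with all arrays. Without before NHD replicate 6, Dhx58, Oas1a, Ifit1, Ifit2, Ifi44, Bst2 and Ifi47 passed as well (adjusted p from 0.0017 to 0.033, limma). Mx1, Oasl, Ifit3 and Cmpk2 passed with each of the 17 arrays left out in turn. Cxcl10 was lost without phenylephrine replicate 1 (adjusted p = 0.054, limma), and Ddx58, Mx2, Rsad2 and Isg15 were lost without replicate 2 (adjusted p = 0.071, 0.073, 0.10 and 0.11). Usp18, Herc6 and Parp9 were lost without either phenylephrine array (limma adjusted p = 0.057, 0.086 and 0.053 without replicate 1, and 0.12, 0.13 and 0.10 without replicate 2). Irf7, Stat2, Trim25, Dtx3l and Ifih1 were also lost without control replicate 1 (adjusted p = 0.072, 0.087, 0.096, 0.070 and 0.12, limma) and without control replicate 3 (0.056, 0.091, 0.096, 0.064 and 0.12). The same 5 were lost as well without phenylephrine replicate 1 (0.082, 0.085, 0.12, 0.10 and 0.13) and without replicate 2 (0.18, 0.26, 0.20, 0.14 and 0.26). Stat2 and Ifih1 were lost without control replicate 2 too (adjusted p = 0.053 for each, limma). Ifih1, the weakest call, was lost under 12 of the 17 arrays left out.

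**Figure D2:**
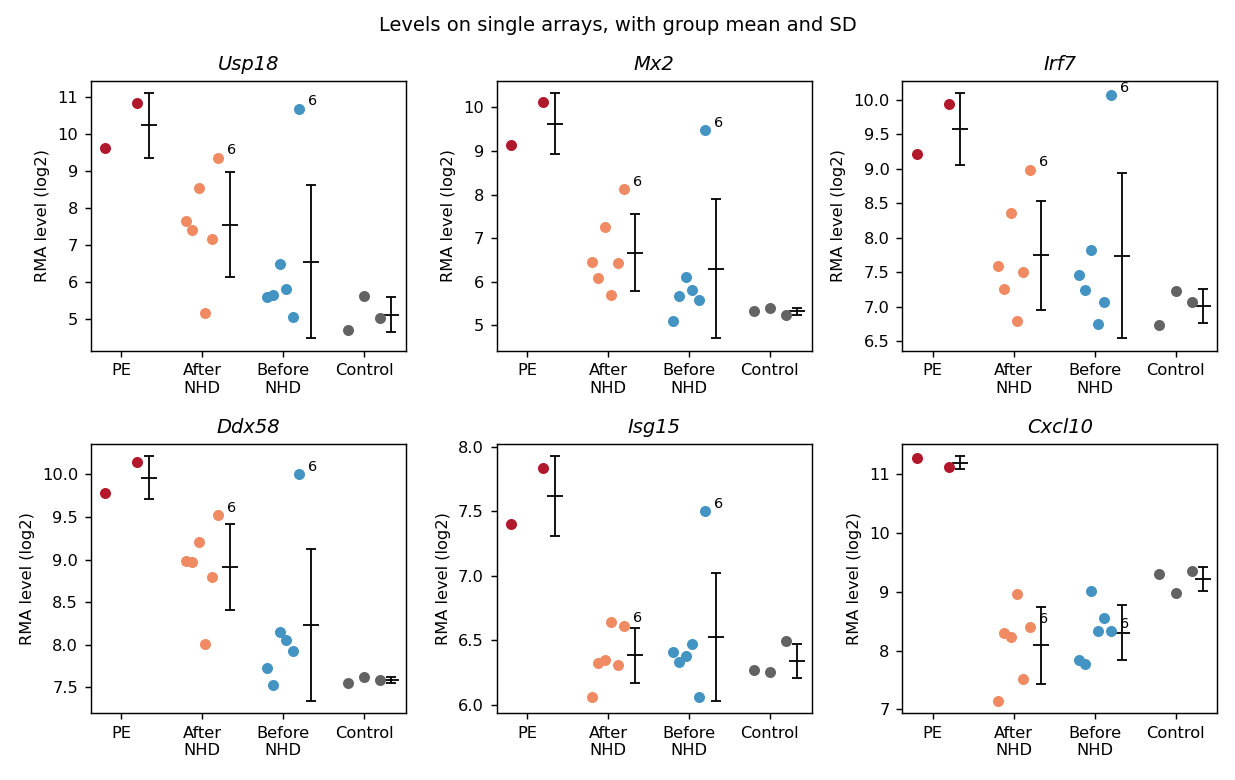
Each panel gives the log2 RMA level of 1 gene on single arrays (points), with the group mean and SD (bars), for phenylephrine (PE, n = 2), after NHD plasma (n = 6), before NHD plasma (n = 6) and control plasma (n = 3); 6 marks the arrays numbered 6. Usp18 spans 5.16 to 9.36 with after NHD plasma and 5.06 to 10.67 with before NHD plasma, and Cxcl10 lies above 11 only with phenylephrine.

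The phenylephrine arrays were also set against the uremic plasma arrays, a comparison added after the data were seen. It uses the phenylephrine arrays of the comparison above, so its values are not independent of it. Against before NHD plasma, 10 of the 33 genes were higher with phenylephrine and 0 lower, while 1.98% of all probe sets were higher and 2.36% lower. Against after NHD plasma, 8 were higher and 0 lower, beside 0.483% and 0.496% of all probe sets. The median difference over the 33 genes was 1.21 log2 units in both.

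Cxcl10 showed the largest change from the uremic plasma groups among the genes that passed in both. Its levels were 7.14, 8.27 and 8.96 with after NHD plasma and 7.77, 8.33 and 9.02 with before NHD plasma (lowest, median and highest), all below the 11.12 and 11.28 with phenylephrine. The difference was 3.11 ± 0.38 from after NHD plasma and 2.89 ± 0.38 from before NHD plasma (adjusted p = 0.0007 and 0.00078, limma). Oasl was at 6.40, 6.86 and 7.18 with after NHD plasma and 6.21, 6.81 and 7.54 with before NHD plasma, and differed by 2.32 ± 0.28 and 2.37 ± 0.28 (adjusted p = 0.0007 and 0.00037, limma). Mx1 (2.12 ± 0.33 and 2.04 ± 0.33), Ifit3 (2.05 ± 0.29 and 1.92 ± 0.29), Herc6 (1.87 ± 0.41 and 1.75 ± 0.41), Rsad2 (1.80 ± 0.41 and 1.76 ± 0.41) and Isg15 (1.24 ± 0.27 and 1.09 ± 0.27) also passed against after NHD and before NHD plasma. Ifit1 passed against after NHD plasma (1.33 ± 0.27; adjusted p = 0.026, limma), with 0.96 ± 0.27 against before NHD plasma (0.056). Ddx58 (1.73 ± 0.47), Mx2 (3.33 ± 0.84) and Cmpk2 (1.21 ± 0.22) passed against before NHD plasma, with 1.05 ± 0.47, 2.95 ± 0.84 and 0.85 ± 0.22 against after NHD plasma (adjusted p = 0.39, 0.12 and 0.090, limma).

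The phenylephrine arrays lay above all 15 plasma arrays for 9 of the 33 genes, beside 3.71% of all probe sets, and for 24 of 33 once before NHD replicate 6 was left out, beside 4.22%. Against the before NHD arrays alone they were higher for 9 genes and lower for 0, beside 7.05% and 9.44% of all probe sets, and against the after NHD arrays alone for 26 and 0, beside 11.6% and 12.4%. The 9 were Mx1, Oasl, Ifit1, Ifit3, Cmpk2, Herc6, Gbp2, Cxcl10 and Lgals3bp. The counts of calls moved with single arrays. Against before NHD plasma the count was 23 without before NHD replicate 6, 3 without phenylephrine replicate 1 and 2 without replicate 2, while 8.14%, 0.243% and 0.442% of all probe sets were called in either direction. Ddx58 lost its call there under 15 of the 17 arrays left out in turn, Mx2 under 5, Isg15 under 3, Mx1, Rsad2, Cmpk2 and Herc6 under 2, and Ifit3 under 1. Against after NHD plasma the count was 11 without before NHD replicate 6, where Mx2 (adjusted p = 0.006, limma), Cmpk2 (0.012) and Dhx58 (0.019) passed as well, beside 1.24% of all probe sets. In that comparison Rsad2 lost its call under 11 of the 17 arrays left out, Herc6 under 10, Isg15 under 7, Ifit1 under 5, Mx1 under 2 and Ifit3 under 1. Oasl and Cxcl10 kept theirs under each of the 17 in both comparisons. The count against after NHD plasma was 3 and 2 without phenylephrine replicates 1 and 2. There 0.0548% and 0.144% of all probe sets were called in either direction, beside 0.979% with all arrays. It was 5 without after NHD replicate 1 (0.863% of all probe sets) and 5 without control replicate 1 (0.712%). It was 4 without each of after NHD replicates 2, 3 and 5 (0.685%, 0.691% and 0.609%).

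Before NHD replicate 6 carried levels near those of the phenylephrine arrays for many of these genes. Usp18 was at 10.67 on that array and at 5.06 to 6.49 on the other 5 before NHD arrays, 4.95 log2 units (30.8-fold) above their mean. Mx2 was at 9.48, against 5.10 to 6.12 on the other 5 (3.82 log2 units, 14.1-fold), and Oas1a at 9.15, against 5.41 to 6.40 (3.33 log2 units). Irf7 was at 10.06, against 6.75 to 7.82 (2.79 log2 units), and Ddx58 at 10.0, against 7.53 to 8.15 (2.12 log2 units). The array was the highest of all 17 for 14 genes, phenylephrine replicate 2 for 15 and phenylephrine replicate 1 for 2. It lay over 1 log2 unit above all control arrays for 19 of the 33 genes, beside 6.9% of all genes. The counts were 17 and 22 on the phenylephrine arrays, 0 to 8 on the after NHD arrays and 0 on each of the other 5 before NHD arrays. Cxcl10 did not share this pattern, at 8.33 on that array and 0.02 log2 units from the mean of the other 5. Nor did Zbp1 (0.04), Oas2 (0.14) or Gbp5 (0.48), which were each higher on another before NHD array. Irf1 was 0.24 above the mean of the other 5.

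The spread between arrays was wider for these genes than for the median gene in each group. The median SD over the 33 genes was 0.248 log2 units with phenylephrine, 0.469 with after NHD plasma, 0.662 with before NHD plasma and 0.174 with control plasma. Over all genes it was 0.089, 0.161, 0.258 and 0.129 in the same groups. Without replicate 6 the before NHD value was 0.331, beside 0.243 over all genes. After NHD arrays varied as well, with replicate 6 the highest of its group for 20 of the 33 genes (11.5% of all genes) and replicate 4 the lowest for 17 (29.1% of all genes).

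After NHD plasma was next compared with control plasma, which shares the control arrays with the phenylephrine comparison. Of the 33 genes, 1 was higher and 2 were lower, while 12.9% of all probe sets were higher and 15.3% lower, and the median difference was 0.15 log2 units, beside -0.07 over all genes. The sensor Ddx58 was at 8.01, 8.97 and 9.52 with after NHD plasma (lowest, median and highest) and at 7.55, 7.62 and 7.59 with control plasma, a difference of 1.32 ± 0.41 (adjusted p = 0.024, limma) or 2.50-fold. Cxcl10 was at 7.14, 8.27 and 8.96 with after NHD plasma and at 9.31, 8.98 and 9.36 with control plasma, and fell by 1.12 ± 0.33 (adjusted p = 0.017, limma). Gbp5, a guanylate-binding protein that acts in inflammasome assembly, was at 6.12, 6.51 and 7.10 with after NHD plasma and at 7.57, 7.92 and 7.59 with control plasma, and fell by 1.08 ± 0.34 (adjusted p = 0.025, limma). The groups did not overlap in any of the 3.

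Lack of overlap was seen in 6 genes, with Ddx58, Mx2 and Cmpk2 higher on every after NHD array and Cxcl10, Gbp5 and Lgals3bp lower. Over all probe sets, every after NHD array was higher in 14.5% and lower in 18.9%. Mx2 was at 5.69, 6.43 and 8.12 with after NHD plasma, against 5.23 to 5.40 with control plasma (1.35 ± 0.73; adjusted p = 0.18, limma). Lgals3bp was at 9.53, 10.22 and 11.23 with after NHD plasma, against 11.29 to 11.63 with control plasma (-1.08 ± 0.41; adjusted p = 0.061, limma). Usp18 spread the most, at 5.16, 7.51 and 9.36 with after NHD plasma, against 4.69 to 5.63 with control plasma, and its difference of 2.43 ± 1.0 did not pass (adjusted p = 0.083, limma). Parp9 (1.03 ± 0.38; adjusted p = 0.054) and Cmpk2 (0.46 ± 0.19; adjusted p = 0.087) did not pass either in limma. Oasl (-0.05 ± 0.24), Ifit3 (-0.17 ± 0.25) and Isg15 (0.05 ± 0.23), which rose with phenylephrine, had values near 0 with after NHD plasma.

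The 3 calls rested on the control arrays. The count was 0 without control replicate 1 or 3, where the adjusted p-values were 0.064 to 0.084 (limma). There 15.6% and 17.3% of all probe sets were called in either direction. Ddx58 and Gbp5 were lost without control replicate 2 (adjusted p = 0.055 and 0.084, limma), where 26.5% of all probe sets were called. The count was 6 without after NHD replicate 4 and 7 without before NHD replicate 6, where Mx2, Cmpk2, Usp18 and Parp9 were higher as well. Of all probe sets, 28.6% and 30.3% were called in either direction under these omissions, a larger share than 6 or 7 of 33.

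Before NHD plasma gave 0 higher and 0 lower genes against control plasma, while 2.88% of all probe sets were higher and 2.05% lower. The median difference over the 33 genes was 0.19 log2 units, beside -0.05 over all genes, and -0.04 once replicate 6 was left out. In limma, an unadjusted p under 0.05 was found for 7324 of all 29214 probe sets and, a smaller share, for 2 of the 33 genes. These were Cxcl10, at 7.77, 8.33 and 9.02 with before NHD plasma and at 9.31, 8.98 and 9.36 with control plasma (-0.91 ± 0.33; adjusted p = 0.10, limma), and Irf1 (0.27 ± 0.11; adjusted p = 0.15). Usp18 was at 5.06, 5.73 and 10.67 with before NHD plasma, against 4.69 to 5.63 with control plasma, and its difference of 1.43 ± 1.0 had the widest error of the 33. No gene of the list had all before NHD arrays on one side of the control arrays, beside 3.49% of all probe sets higher and 4.91% lower.

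After NHD plasma set against before NHD plasma gave 0 higher and 0 lower genes of the 33, while 0.288% of all probe sets were higher and 0.11% lower. The median difference was -0.04 log2 units, beside -0.01 over all genes. In limma, an unadjusted p under 0.05 was found for 3 of the 33, beside 5402 of all 29214 probe sets, a larger share. The 3 were Lgals3bp (-0.84 ± 0.34, adjusted p = 0.19, limma), Gbp5 (-0.70 ± 0.28, adjusted p = 0.18) and Cmpk2 (0.37 ± 0.16, adjusted p = 0.23). Lgals3bp was at 9.53, 10.22 and 11.23 with after NHD plasma and at 9.60, 11.38 and 11.88 with before NHD plasma. Gbp5 was at 6.12, 6.51 and 7.10 with after NHD plasma and at 6.16, 7.30 and 8.38 with before NHD plasma. The ranges overlapped in both, as in the other 31 genes, beside 0.294% of all probe sets with every after NHD array higher and 0.349% with every one lower.

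The count of 0 moved with single before NHD arrays. Without before NHD replicate 6, 3 genes were higher after NHD, namely Ddx58 (1.03 ± 0.20; adjusted p = 0.011, limma), Cmpk2 (0.52 ± 0.11; adjusted p = 0.014) and Usp18 (1.82 ± 0.55; adjusted p = 0.049). Of all probe sets, 9.21% were called in either direction under that omission, a share near 3 of 33, beside 0.397% with all arrays. That array was set apart by its levels of these same genes, so the 3 calls are not independent of the choice to omit it. Ddx58 then lay at 8.01 to 9.52 with after NHD plasma and at 7.53 to 8.15 with before NHD plasma. Without before NHD replicate 4, 2 genes passed, namely Gbp5 and Lgals3bp, both lower after NHD, while 9.06% of all probe sets were called. With all arrays the errors were wide, with differences of 0.38 ± 0.59 for Mx2, 1.0 ± 0.82 for Usp18 and -0.06 ± 0.56 for Oas1a.

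**Figure D3:**
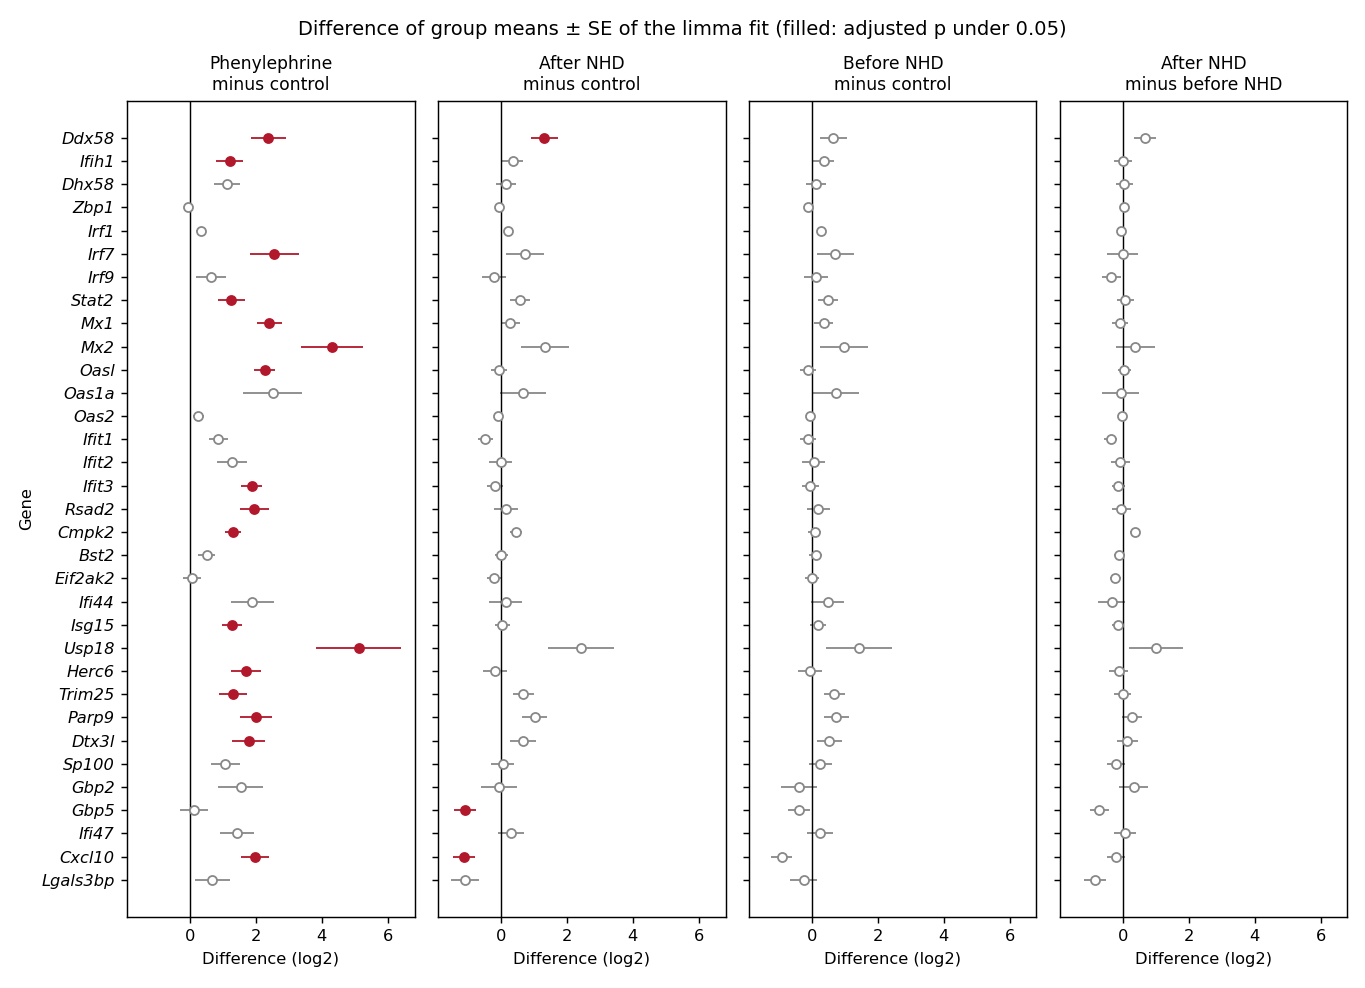
Differences of group means (log2 units, points) with the SE of the limma fit (bars) for 33 interferon-stimulated genes, in panels for phenylephrine minus control, after NHD minus control, before NHD minus control, and after NHD minus before NHD; filled points have an adjusted p under 0.05. There are 17 filled points in the first panel, 3 in the second and 0 in the other two.

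The genes that make and carry the interferon signal were read from a separate list of 32, of which 26 were measured. The others were not analysed here. The interferon genes Ifnb1, Ifna4 and Ifng had no difference that passed in any of the 4 comparisons with limma: Ifnb1 had group means of 5.08 with phenylephrine, 5.08 with after NHD plasma, 4.96 with before NHD plasma and 5.11 with control plasma. The group means of Ifnb1 and Ifng all lay under 6.06, the lower quartile over genes, so the lack of a call says little there. Ifnb1, Ifna4 and Ifng were the only interferon genes on the list. With phenylephrine against control plasma, 5 of the 26 rose and 3 fell, beside 8.54% and 10.2% of all probe sets. Adar, the editor that marks cellular RNA as self, rose by 1.10 ± 0.28, and Mavs, the mitochondrial adaptor of RIG-I and MDA5, by 0.65 ± 0.21 (adjusted p = 0.013 and 0.040, limma). Stat3 (0.56 ± 0.14), Ptpn11 (0.42 ± 0.14) and the factor Irf3 (0.40 ± 0.13) also rose. Ptpn2, a phosphatase that switches off JAK and STAT proteins, averaged 9.72 ± 0.09 with phenylephrine and 11.14 ± 0.10 with control plasma (SD), and fell by 1.42 ± 0.21 (SE; adjusted p = 0.00068, limma). Pias1, an inhibitor of STAT signalling, fell by 0.55 ± 0.14, and the factor Irf8 fell by 0.49 ± 0.15.

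With after NHD against control plasma, 5 of the 26 rose and 6 fell, beside 12.9% and 15.3% of all probe sets. Mavs (0.95 ± 0.16), Adar (0.95 ± 0.22), Stat3 (0.50 ± 0.11), Ptpn11 (0.33 ± 0.11) and Irf3 (0.28 ± 0.10) were higher. Ptpn2 averaged 10.26 ± 0.25 with after NHD plasma, against 11.14 ± 0.10 with control plasma (SD), and fell by 0.88 ± 0.17 (SE; adjusted p = 0.0014, limma). The receptor chains Ifnar1 (-0.54 ± 0.13) and Ifngr1 (-0.31 ± 0.10), the factors Irf2 (-0.54 ± 0.11) and Irf8 (-0.55 ± 0.12) and the kinase Tbk1 (-0.43 ± 0.13) were lower. With before NHD against control plasma, Mavs (0.61 ± 0.16) and Irf3 (0.38 ± 0.10) were higher and 0 were lower. Of all probe sets, 2.88% were higher and 2.05% lower there. After NHD against before NHD plasma gave 0 of 26, beside 0.288% of all probe sets higher and 0.11% lower. The comparisons with control plasma share the control arrays.

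Markers of other cell types also differed between arrays. In such bulk samples, fewer cells of a type and less RNA per cell cannot be told apart. The mean of 8 fibroblast markers, collagens among them, lay 1.87 and 1.64 log2 units above control on the phenylephrine arrays, and from -1.07 to 1.34 on the after NHD arrays and from -1.18 to 1.5 on the before NHD arrays. The summed level of the 8 was 13.4 to 13.7 with phenylephrine, 10.4 to 13.0 with after NHD plasma, 10.3 to 13.2 with before NHD plasma and 11.3 to 11.5 with control plasma (log2). With phenylephrine against control plasma, 1 of the 8 passed, Fbln1 (1.79 ± 0.30; adjusted p = 0.0012, limma), and the median was 1.79. Fbln1 also passed with after NHD against control plasma (0.68 ± 0.23). Of all probe sets, 8.54% passed as higher and 10.2% as lower with phenylephrine, and 12.9% and 15.3% with after NHD plasma. Both phenylephrine arrays and replicates 3 and 6 of both NHD groups had fibroblast means of 1.0 or more. Their means over the 33 interferon-stimulated genes were 0.36 to 1.73. On every other array the fibroblast mean was 0.73 or less and the mean of the 33 genes 0.1 or less. The fibroblast mean was 1.5 above control on both before NHD replicates 3 and 6, while the interferon-stimulated genes averaged 0.36 on replicate 3 and 1.46 on replicate 6. On after NHD replicates 3 and 6 the fibroblast means were 1.34 and 1.0 and those of the 33 genes 0.53 and 0.81.

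**Figure D4:**
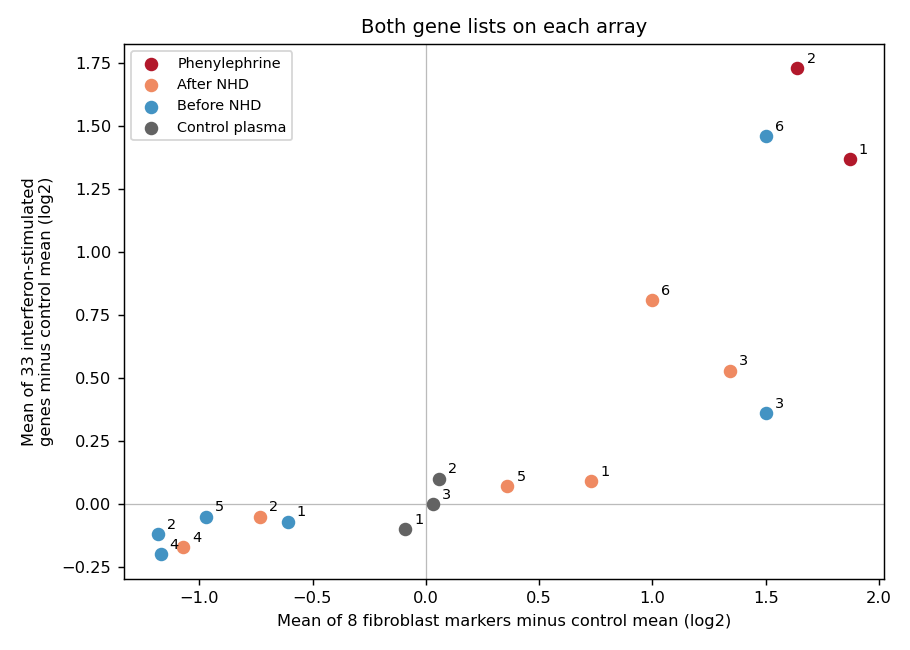
Each point is 1 of 17 arrays, with the mean of 8 fibroblast markers on the x axis and the mean of the 33 interferon-stimulated genes on the y axis, both in log2 units minus the control mean. Phenylephrine arrays lie at the upper right, and before NHD replicates 3 and 6 share an x value of 1.5 with y values of 0.36 and 1.46. Both phenylephrine arrays and replicates 3 and 6 of both NHD groups have the highest values on both axes.

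Of 9 measured leukocyte and macrophage markers, 1 passed with phenylephrine against control plasma, Laptm5 (0.79 ± 0.21; adjusted p = 0.017, limma), and the mean of the 9 lay 0.34 and 0.45 log2 units above control. Their mean lay between -0.29 and 0.28 on the after NHD arrays and between -0.38 and 0.60 on the before NHD arrays, with 0.60 on replicate 3 and 0.24 on replicate 6. Their summed level was 10.1 to 10.2 with phenylephrine, 9.22 to 9.94 with after NHD plasma, 9.13 to 10.39 with before NHD plasma and 9.58 to 9.69 with control plasma (log2). Ptprc, the pan-leukocyte antigen CD45, averaged 5.55 ± 0.04 with phenylephrine, 5.34 ± 0.20 with after NHD plasma, 5.29 ± 0.32 with before NHD plasma and 5.24 ± 0.17 with control plasma (SD, n = 2, 6, 6 and 3). Lyz2 averaged 7.83 ± 0.06, 6.33 ± 0.55, 6.54 ± 0.88 and 6.35 ± 0.32 in the same groups. Neither Ptprc nor Lyz2 passed with phenylephrine against control plasma. Phenylephrine means lay below control means for Itgam (4.92 and 5.05) and Cd3e (5.05 and 5.09). Of 7 measured endothelial markers, 2 passed with phenylephrine against control plasma, the receptor Kdr (1.89 ± 0.63; adjusted p = 0.046, limma) and the junction protein Cdh5 (0.51 ± 0.11; adjusted p = 0.0055). The mean of the 7 lay 0.48 and 0.45 log2 units above control on the phenylephrine arrays, from -0.20 to 0.29 on the after NHD arrays and from -0.20 to 0.43 on the before NHD arrays, where it was 0.40 on replicate 1 and 0.42 on replicate 6. Kdr also passed against control plasma with after NHD (1.58 ± 0.49) and before NHD plasma (1.79 ± 0.49). Of 6 smooth muscle and pericyte markers, 3 passed with phenylephrine against control plasma, with Rgs5 (1.65 ± 0.35) and Cspg4 (1.40 ± 0.27) higher and Acta2 (-0.40 ± 0.12) lower. With after NHD against control plasma Cspg4 (0.90 ± 0.21) was higher and Cnn1 (-1.16 ± 0.29) lower. The mean of the 6 lay 0.10 and 0.11 above control on the phenylephrine arrays, from -0.72 to -0.08 on the after NHD arrays and from -0.57 to 0.26 on the before NHD arrays. Of all probe sets, 8.54% passed as higher and 10.2% as lower with phenylephrine against control plasma. The shares were 12.9% and 15.3% with after NHD plasma, and 2.88% and 2.05% with before NHD plasma. RMA values have no true 0, so that no marker can be said to be absent. The part of these cell types in the values of the interferon-stimulated genes was not tested.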

How the data were processed

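RNA of each culture was labelled with biotin and hybridised to 1 Affymetrix array, 17 in all, per the labels. The authors deposited log2 expression values made with RMA per the submitters' processing notes. The RMA version and how probe sets were defined are not given in the sources read. RMA equalises the arrays' distributions, and a shift common to nearly all genes would vanish. The values ran from 1.28 to 14.29, with array medians of 6.89 to 7.03. Precision is limited by how few arrays each group has.

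Of 29214 probe sets, 15310 had 1 symbol in the platform annotation, 323 several and 13581 none. Current symbols came from a RefSeq table (GRCr8), matched on the Entrez number, which held 15279 of them. The probe set with the highest mean stood for a gene.

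A linear model of 4 groups was fitted to all 17 arrays for every probe set with limma 3.58.1 in R 4.3.3, using eBayes moderation (3.32 prior and 13 residual degrees of freedom). The two-sided p-values received a Benjamini-Hochberg adjustment across the 29214 probe sets, and 0.05 was the threshold. The 35 genes, the other lists and the alternatives were chosen with earlier results of these data known. The genes described one by one are the 18 that passed in any of the 4 planned comparisons and the 2 of each role with the widest range of group means, 22 in all; others are named with their differences. Of the interferon pathway and cell type lists, genes that passed against control plasma are named, and a few others are given by their levels. Alternatives were the brighter probe sets, 1 probe set per gene, a prior with trend and robust settings, another quantile normalization, only the compared groups, array weights, each array's SD as a covariate, the replicate number as a block, samples numbered 4 or 6 left out, and each array left out in turn. For 2 before NHD samples whose titles hold 2 numbers, the last one served as the replicate number. No 2 arrays held identical values, and the closest differed by an SD of 0.205 over probe sets. No batch was given in the labels.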

Additional observations from a re-analysis of the deposited data

Results flagged for a closer look

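Single arrays were checked for a value far from the other 5 of its NHD group, with a critical gap of 0.625 of the group's range, in 66 tests over 33 genes and 2 groups. Chance alone marks a share of about 0.05 of such groups. It marked before NHD replicate 6 as the highest array for 13 genes. Among sensors and factors these were Ddx58 (10.0), Ifih1 (9.44), Dhx58 (7.59) and Irf7 (10.06). Among antiviral effectors they were Mx1 (6.35), Mx2 (9.48), Oas1a (9.15), Rsad2 (7.14) and Bst2 (6.88). The others were Isg15 (7.50), Usp18 (10.67), Parp9 (9.11) and Dtx3l (8.47), all as log2 levels. Since the 13 values come from 1 array, they are not 13 independent observations. The check covered these 33 genes only, so no share of all genes marked on this array stands beside the 13. Of all genes, 16.5% were highest and 26.3% lowest in the group on before NHD replicate 6.

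After NHD replicate 4 was marked as the lowest of its group for Stat2 (7.89). Before NHD replicate 4 was marked as the lowest of its group for Lgals3bp (9.60).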

How the results depend on the processing

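Settings changed how many interferon-stimulated genes passed, and the cause was not tested; no gene that passed changed its sign under the settings run. Leaving out the samples numbered 6 and both comparisons of phenylephrine with uremic plasma were added after the data were seen. Shares of all probe sets called in either direction stand in brackets. Phenylephrine against control plasma (17; 18.7%) gave 28 with only the compared groups (31.1%), 27 with array weights (43.1%) and 27 with the replicate block (25.1%), and 5 to 24 with single arrays left out. Phenylephrine against before NHD plasma (10; 4.34%) gave 3 among the brighter probe sets, which hold 19 of the genes (9.67%), 2 with only the compared groups (0.116%), 23 with array weights (16.3%), 16 with each array's SD as a covariate (6.92%), 24 with the replicate block (8.38%), 23 without samples numbered 6 (6.92%), and 2 to 23 with single arrays left out. Phenylephrine against after NHD plasma (8; 0.979%) gave 2 among brighter probe sets (2.01%), 25 with array weights (9.99%), 22 with the block (2.38%), 21 without samples numbered 6 (0.962%), and 2 to 11 with single arrays left out. After NHD against control plasma (3; 28.2%) gave 5 among brighter probe sets (44.7%), 5 after a second quantile normalization (28.2%), 9 with only the compared groups (35.3%), 13 with array weights (51.1%), 0 with each array's SD as a covariate (10.3%), 9 with the block (31%), 8 without samples numbered 4 (31.8%), 9 without those numbered 6 (26.7%), and 0 to 7 with single arrays left out; its median of 0.15 turned to -0.26 with the SD term. Before NHD against control plasma (0; 4.93%) gave 3 with array weights (23.7%), 3 with the block (11.4%) and 0 with each array left out. After NHD against before NHD plasma (0; 0.397%) gave 2 with array weights (10.9%), 1 with the block, Lgals3bp (-0.84, limma adjusted p = 0.049; 1.08%), 2 without samples numbered 4 (9.16%), 2 without those numbered 6 (5.87%), and 0 to 3 with single arrays left out. Same-numbered after and before NHD arrays correlated at -0.03 to 0.60, and 3 of 6 after NHD arrays correlated best with their own number. These were numbers 2, 3 and 4, at 0.42, 0.60 and 0.57. The numbers were not taken to pair the samples, but an incomplete match cannot show that the samples are unpaired. The alternative of averaging probe sets of a gene gave the same values, since each gene had 1 probe set.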
